A study of Homo sapiens with 4 samples.

Results

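The genes examined here encode the chains of MHC class I molecules and the proteins that load them with peptide. They were taken by symbol, 9 of the 61228 features counted: the chains HLA-B, HLA-C, HLA-E and HLA-F, the light chain gene B2M, the transporter genes TAP1 and TAP2, the tapasin gene TAPBP, and NLRC5, a regulator of class I genes. RNA had been sequenced from H1792, an established human lung cancer line labelled wild type, after 96 h with ACBI1 (2 libraries) or with the solvent DMSO alone (2 libraries). ACBI1 is a PROTAC that directs SMARCA2, SMARCA4 and PBRM1, parts of the SWI/SNF chromatin remodelling complexes, to the VHL ubiquitin ligase for degradation; it acts on protein, so transcript counts do not check that its targets were lost. Its dose is written as 1 mM in the labels, and nothing in the counts allows a check of that figure. All 4 libraries come from 1 line, and nothing in the labels says that replicates were separate cultures, so p-values measure only the spread between these libraries. The comparison asks which class I transcripts changed with the degrader.

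MHC class I molecules sit on the surface of nearly all nucleated cells and show short peptides from inside the cell to CD8+ T cells. The proteasome cuts the peptides, the TAP transporter carries them into the endoplasmic reticulum, aminopeptidases trim them, and tapasin holds an empty heavy chain with B2M beside TAP until a peptide binds. Interferon gamma raises most of these genes, through IRF1 and through NLRC5, which binds class I promoters with the RFX, CREB and NF-Y factors. Tumour cells with little class I on the surface are poorly seen by T cells.

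Gene counts summed to between 64281850 and 86010100 per library. All 9 genes passed the filter on low counts, among 19159 genes tested. Genes with a Benjamini-Hochberg adjusted p under 0.05 in edgeR's quasi-likelihood test were called; these were 17.4% of the genes tested. Levels are counts per 1000000 (CPM) on TMM-scaled library sizes. The summed level of 6 leukocyte markers, which would betray class I-rich contaminating cells, was 0.418 and 1.04 CPM with DMSO and 0.302 and 0.458 CPM with ACBI1, with CD3E at 0 counts in every library. Of 6 epithelial markers the keratin genes KRT7, KRT8, KRT18 and KRT19 were called lower with ACBI1. The summed level of the 6 was 982 and 1040 CPM with DMSO against 323 and 202 CPM with ACBI1, of which KRT7 made up 678 and 680 CPM with DMSO. EPCAM had the opposite sign, at 5.38 and 2.78 CPM with DMSO and 15.6 and 4.84 CPM with ACBI1 (log2 change 1.32, adjusted p 0.179), and CDH1 was too rare to test. The lung lineage gene NKX2-1 had 0 counts in every library, which allows up to 0.0335 to 0.0458 CPM, and NAPSA and SFTPB stayed at or below 0.236 CPM, so these lineage markers do not show the lung origin in the label. Of the endothelial markers, CDH5 had at most 4 counts in a library while PECAM1 had 997 and 3461 counts with DMSO and 1 and 3 with ACBI1. The part of these markers in the results was not tested. In bulk RNA, fewer cells of a type and less RNA per cell cannot be told apart.

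Most transcripts of the class I machinery were lower with ACBI1. HLA-B, HLA-C, HLA-E, B2M, TAPBP and NLRC5, 6 of the 9 genes, were called lower and 0 were called higher, where 10.6% of all tested genes were called lower and 6.75% higher. HLA-F, TAP1 and TAP2 were not called. The set was chosen with earlier results of these data known, so these shares describe it and are not a test. All 9 fitted log2 changes were negative, from -2.80 for HLA-B to -0.42 for TAP1, with a median of -1.22 beside a median of 0.01 over all genes tested. In 7 of the 9 both ACBI1 libraries lay below both DMSO libraries, which held for 32.2% of the tested genes; the exceptions were HLA-F and TAP2. Removing ACBI1 replicate 1, the library with the lowest B2M, HLA-C, TAPBP and NLRC5, left only HLA-B and HLA-E called (2 of 9), with adjusted p of 0.055 for HLA-C, 0.0787 for B2M, 0.104 for NLRC5 and 0.174 for TAPBP. Those genes kept negative log2 changes of -1.19, -1.02, -1.02 and -0.74 in that fit, in which the lone ACBI1 library is assumed to vary like the DMSO libraries.

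**Figure D1:**
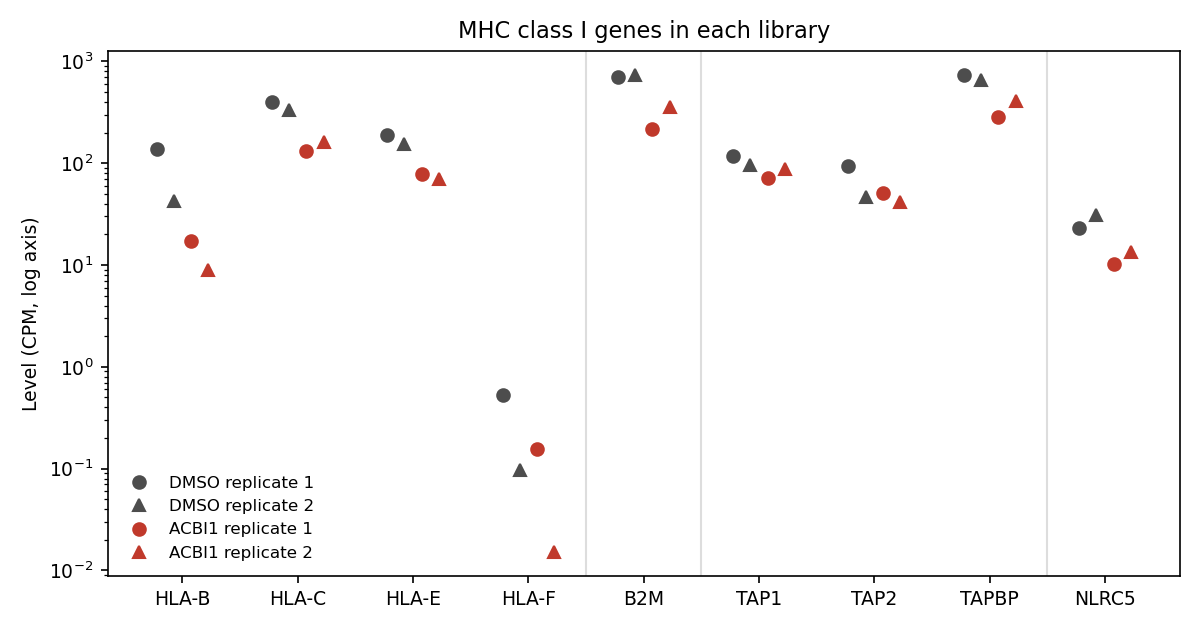
Level of each gene (CPM, log axis) in the 4 libraries; grey marks DMSO, red ACBI1, circles replicate 1 and triangles replicate 2, with lines separating chains, light chain, peptide loading genes and NLRC5. HLA-B spans 8.85 to 138 CPM with a wide gap between DMSO replicates, B2M and TAPBP are the most abundant, and TAP1 differs least between groups.

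The heavy chains carry the peptide groove. HLA-C, a classical chain that also engages killer-cell receptors of natural killer cells, was at 401 and 335 CPM with DMSO and at 130 and 161 CPM with ACBI1. The groups were well apart, and each ACBI1 library was below each DMSO library. HLA-C fell 2.53-fold, from 368 ± 46.7 to 146 ± 21.6 CPM (SD, n = 2), that is a fitted log2 difference of -1.34 (SE 0.20, edgeR adjusted p 0.0104).

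HLA-E, a chain of low variability that presents signal peptides of other class I chains to the inhibitory receptor NKG2A, was at 188 and 156 CPM with DMSO and at 78.4 and 69.7 CPM with ACBI1. Replicates lay close together in both groups. HLA-E fell 2.32-fold, from 172 ± 22.7 to 74.0 ± 6.12 CPM (SD, n = 2), that is a fitted log2 difference of -1.22 (SE 0.18, edgeR adjusted p 0.0102). It was called with any 1 library left out, with log2 changes from -1.35 to -1.07.

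HLA-B, a classical and highly variable chain, was at 138 and 42.9 CPM with DMSO and at 17.1 and 8.85 CPM with ACBI1. DMSO replicate 1 stood far above the other 3 libraries, and the groups did not overlap. The fitted fall was 6.97-fold, from 90.5 ± 67.3 to 13.0 ± 5.82 CPM (SD, n = 2), that is a fitted log2 difference of -2.80 (SE 0.60, edgeR adjusted p 0.0283). The SE was the widest among the called genes. Other genes, HLA-C among them, overlap 18.9% of the exonic length of the HLA-B gene model. Its log2 change was -1.72 without DMSO replicate 1 and -3.41 without DMSO replicate 2, and without ACBI1 replicate 2 it was not called (-2.42, adjusted p 0.059). HLA-B counts were 34.4% of HLA-C counts in DMSO replicate 1, 12.8% in DMSO replicate 2, 13.1% in ACBI1 replicate 1 and 5.50% in ACBI1 replicate 2. The share in the second DMSO library and that in the first ACBI1 library were thus nearly equal, so that the balance of HLA-B to HLA-C did not separate the groups. Against HLA-E it did, with HLA-B counts at 73.4% and 27.5% of HLA-E counts with DMSO and at 21.8% and 12.7% with ACBI1.

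HLA-F, a little-expressed nonclassical chain, had 43 and 7 counts with DMSO and 14 and 1 with ACBI1. Its groups overlapped, the first replicate was the higher in both, and 28.5% of its exonic length is overlapped by other genes. The log2 change of -1.77 (SE 1.07) was not called (edgeR adjusted p 0.295) and ran from -4.22 to -0.09 with 1 library left out. HLA-G, a further nonclassical chain, had 0 counts in every library, which allows up to 0.0335 to 0.0458 CPM.

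The HLA chains are alike in sequence, which bears on how reads are assigned. Of the 50-base windows in the principal GENCODE transcript, 2.54% for HLA-B, 6.79% for HLA-C, 5.13% for HLA-E and 1.70% for HLA-F occur without a mismatch in transcripts of another gene. The line's own HLA alleles were not analysed here, and reads that differ from the reference may have been lost in all 4 libraries alike. Reads that overlapped several genes made up 4.41% to 5.07% of the reads listed, and reads with several alignments 3.52% to 5.44%.

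The 7 genes of the set other than B2M and NLRC5 lie in the major histocompatibility complex on chromosome 6. In GENCODE 29 (GRCh38), HLA-F is at chr6:29722775-29738528 and HLA-E at chr6:30489467-30494205 on the plus strand, HLA-C at chr6:31268749-31272130 and HLA-B at chr6:31269491-31357188 on the minus strand, so that the HLA-B model runs over that of HLA-C. TAP2 (chr6:32821833-32838780), TAP1 (chr6:32845209-32853978) and TAPBP (chr6:33299694-33314387) are on the minus strand. B2M is at chr15:44711487-44718877 and NLRC5 at chr16:56989485-57083531, both on the plus strand.

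The sequences upstream of HLA-B, HLA-C and B2M are printed because these genes were called lower and class I promoters are known for shared elements. They are RefSeq sequences (GRCh38.p14) within 250 bases before the gene start, given 5′ to 3′ on the gene's strand and without annotated UTR bases; the last bases of the HLA-C stretch lie within its GENCODE model. Capitals mark matches, on either strand, to the Y box CCAATCAG bound by NF-Y, to TGACG, the core of the X2 box bound by CREB and ATF factors, to a pair of GAAA repeats set 2 bases apart, the core of sites for IRF factors, and to the 10-letter NF-kB consensus; matches to the last 2 can overlap each other or themselves.
HLA-B, chr6:31357189-31357429, minus strand: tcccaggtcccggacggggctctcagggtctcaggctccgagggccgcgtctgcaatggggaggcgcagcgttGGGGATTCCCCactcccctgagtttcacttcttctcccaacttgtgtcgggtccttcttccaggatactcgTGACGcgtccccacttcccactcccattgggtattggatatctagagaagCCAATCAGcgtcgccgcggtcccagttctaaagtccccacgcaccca
HLA-C, chr6:31272106-31272342, minus strand: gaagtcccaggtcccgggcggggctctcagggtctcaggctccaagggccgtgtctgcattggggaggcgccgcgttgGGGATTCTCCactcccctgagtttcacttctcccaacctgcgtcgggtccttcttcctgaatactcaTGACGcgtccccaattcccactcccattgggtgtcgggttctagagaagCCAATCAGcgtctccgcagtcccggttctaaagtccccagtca
B2M, chr15:44711267-44711486, plus strand: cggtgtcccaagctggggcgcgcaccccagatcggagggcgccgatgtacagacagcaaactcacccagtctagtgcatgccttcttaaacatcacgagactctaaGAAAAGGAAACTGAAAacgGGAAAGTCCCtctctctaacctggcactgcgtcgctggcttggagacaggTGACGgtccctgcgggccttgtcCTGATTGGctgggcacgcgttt

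The Y box letters stand in the windows of HLA-B, HLA-C, HLA-F and B2M, and in 3.81% of the 35116 promoter windows of the same 250 bases. HLA-B, HLA-C and B2M also hold TGACG upstream of the Y box, at 106, 105 and 75 bases before the gene start; 21.2% of all windows have these 5 letters. The printed HLA-B and HLA-C stretches are identical at 214 of 245 aligned positions (87.3%), and their NF-kB matches differ: HLA-B has GGGGATTCCCC, which matches in 2 overlapping frames, and HLA-C has GGGATTCTCC. The window of TAPBP, which was called lower, has neither the Y box nor TGACG. That of HLA-F, which was not called, has the Y box, and that of TAP2, also not called, has TGACG alone of the pair. Any link between these letters and the calls was not tested. IRF pairs were found in the windows of B2M, HLA-F, TAP2 and TAPBP and in a window of TAP1, beside 3.02% of all windows. The NF-kB consensus was found in those of HLA-B, HLA-C, B2M and TAPBP and in the same TAP1 window, beside 5.21%. The RefSeq windows of TAP1, TAPBP and HLA-F lie inside the GENCODE model of the gene, so they may not be upstream sequence. The same holds for the part of the TAP2 window with TGACG, which lies among its 83 annotated UTR bases. A match describes letters only, and a site whose letters differ from these patterns would be missed, also in HLA-B and HLA-C. RefSeq windows were used for 7 of the 9 genes, without HLA-E and NLRC5.

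B2M, the invariant light chain that every class I heavy chain needs to reach the cell surface, was at 704 and 734 CPM with DMSO and at 217 and 353 CPM with ACBI1. The DMSO libraries were nearly equal, and the ACBI1 libraries were lower and further apart. B2M fell 2.52-fold, from 719 ± 21.1 to 285 ± 96.1 CPM (SD, n = 2), that is a fitted log2 difference of -1.33 (SE 0.26, edgeR adjusted p 0.0229). None of the 50-base windows of its transcript occurs in another gene.

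TAPBP encodes tapasin, the chaperone that bridges the heavy chain to TAP and favours tightly bound peptides. It was at 741 and 650 CPM with DMSO and at 287 and 413 CPM with ACBI1. As with B2M, the first ACBI1 library was the lowest. TAPBP fell 1.99-fold, from 696 ± 64.4 to 350 ± 89.1 CPM (SD, n = 2), that is a fitted log2 difference of -0.99 (SE 0.23, edgeR adjusted p 0.035).

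Neither transporter gene was called. TAP1, which encodes the first subunit of the peptide pump, was at 118 and 96.3 CPM with DMSO and at 72.2 and 88.4 CPM with ACBI1. The groups did not overlap, but the lower DMSO and the higher ACBI1 library were close. The log2 change of TAP1 was -0.42 (SE 0.19) and did not pass (edgeR adjusted p 0.179).

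TAP2, the other subunit, was at 93.2 and 46.3 CPM with DMSO and at 51.0 and 41.9 CPM with ACBI1. DMSO replicate 1 alone was high, and the remaining 3 libraries overlapped. The log2 change of -0.59 (SE 0.33) was not called (edgeR adjusted p 0.267). It was 0.01 without DMSO replicate 1 and -1.01 without DMSO replicate 2, where the gene was called (adjusted p 0.0108). Other gene models overlap 32.3% of the exonic length of TAP2, and 80.2% of the 50-base windows in its principal transcript also occur in transcripts of another gene. Its counts, its level per length and its ratios are uncertain for that reason.

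**Figure D2:**
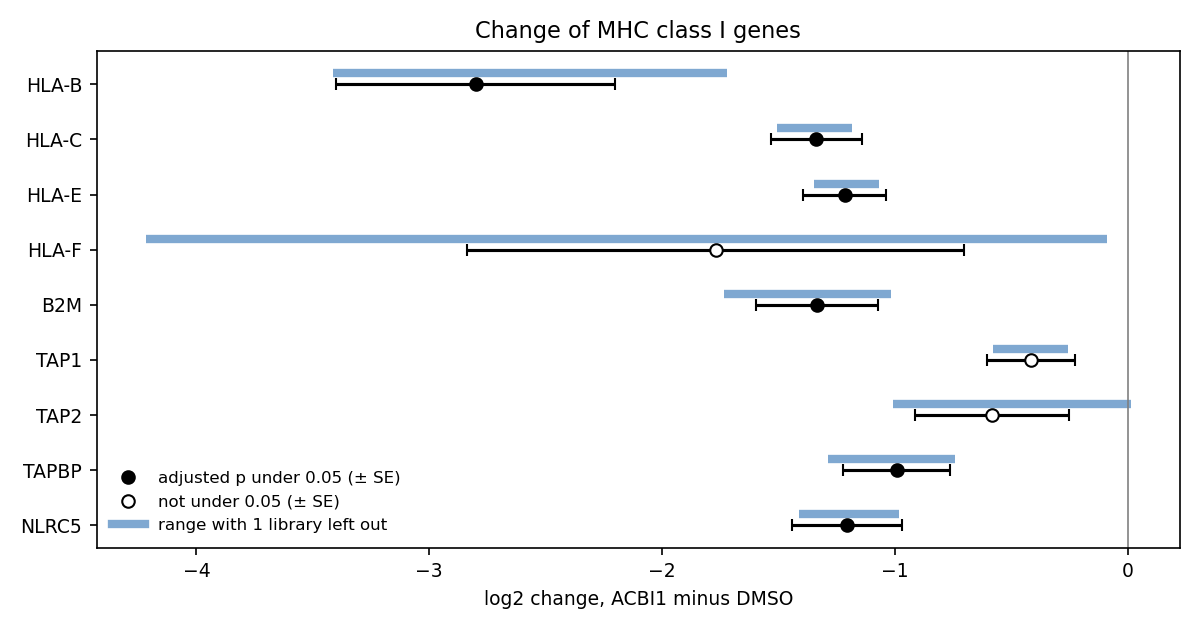
Fitted log2 change (ACBI1 minus DMSO) of each gene with its SE; filled points passed an adjusted p of 0.05 and open points did not, and blue bars give the range of the change when 1 library is left out. The bars of HLA-B (-3.41 to -1.72), HLA-F (-4.22 to -0.09) and TAP2 (-1.01 to 0.01) are the long ones, while HLA-C and HLA-E have short bars between -1.51 and -1.07.

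NLRC5, the class I transactivator of the NLR family, was at 23.2 and 31.1 CPM with DMSO and at 10.2 and 13.3 CPM with ACBI1. Here the second replicate was the higher in both groups, the reverse of HLA-B. NLRC5 fell 2.31-fold, from 27.1 ± 5.58 to 11.8 ± 2.14 CPM (SD, n = 2), that is a fitted log2 difference of -1.21 (SE 0.24, edgeR adjusted p 0.023). The log2 differences of HLA-C, HLA-E, B2M and TAPBP lay within 1 SE of that of NLRC5.

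Per kilobase of the principal transcript, B2M was the most abundant with DMSO at 422 ± 12.4 CPM per kb, followed by TAPBP at 369 ± 34.1 and HLA-C at 240 ± 30.4 CPM per kb (SD, n = 2). HLA-E stood at 66.1 ± 8.74 and HLA-B at 58.5 ± 43.5 CPM per kb, an order that the HLA-B replicates did not resolve. TAP1 (36.2 ± 5.19 CPM per kb) and TAP2 (27.9 ± 13.3 CPM per kb) did not separate beyond their spread, NLRC5 was at 3.98 ± 0.818 and HLA-F at 0.191 ± 0.186 CPM per kb. With ACBI1 the order at the top was TAPBP at 185 ± 47.2 and B2M at 167 ± 56.3 CPM per kb, whose ranges overlapped, and then HLA-C at 94.9 ± 14.1 CPM per kb. HLA-E (28.5 ± 2.35 CPM per kb) and TAP1 (27.2 ± 3.87 CPM per kb) then lay within each other's spread, and HLA-B, at 8.38 ± 3.76 CPM per kb, was below both TAP genes in each ACBI1 library.

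Ratios to B2M within a library do not depend on how libraries are scaled, and show which transcripts kept pace with the light chain. With 2 libraries a group, the smallest p of an exact permutation test of such a ratio is 0.33, so none was tested. HLA-C counts were 57.0% and 45.7% of B2M counts with DMSO and 60.0% and 45.6% with ACBI1. The groups overlapped almost wholly, a difference in mean log2 ratio of 0.04 beside replicate SDs of 0.23 and 0.28. HLA-E (26.7% and 21.2% against 36.1% and 19.7%) and NLRC5 (3.29% and 4.23% against 4.71% and 3.76%) also overlapped between groups.

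TAP1 counts were 16.8% and 13.1% of B2M counts with DMSO and 33.2% and 25.0% with ACBI1. Both ACBI1 values exceeded both DMSO values, and the mean log2 ratio was higher by 0.96, beside replicate SDs of 0.25 and 0.29. The ratio of TAPBP to B2M was 1.05 and 0.885 with DMSO and 1.32 and 1.17 with ACBI1, also without overlap, while that of TAP2 overlapped (13.2% and 6.30% against 23.5% and 11.9%). HLA-B went the other way on average, at 19.6% and 5.84% of B2M counts with DMSO and 7.86% and 2.51% with ACBI1, but the groups overlapped. With TAPBP as the reference, the log2 ratio of TAP1 was higher by 0.60, again without overlap. HLA-B was then without overlap too, at 18.6% and 6.60% of TAPBP counts with DMSO and 5.96% and 2.14% with ACBI1, and the log2 ratio of HLA-C fell by 0.33, with 54.1% and 51.6% of TAPBP counts in DMSO and 45.5% and 39.0% in ACBI1.

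**Figure D3:**
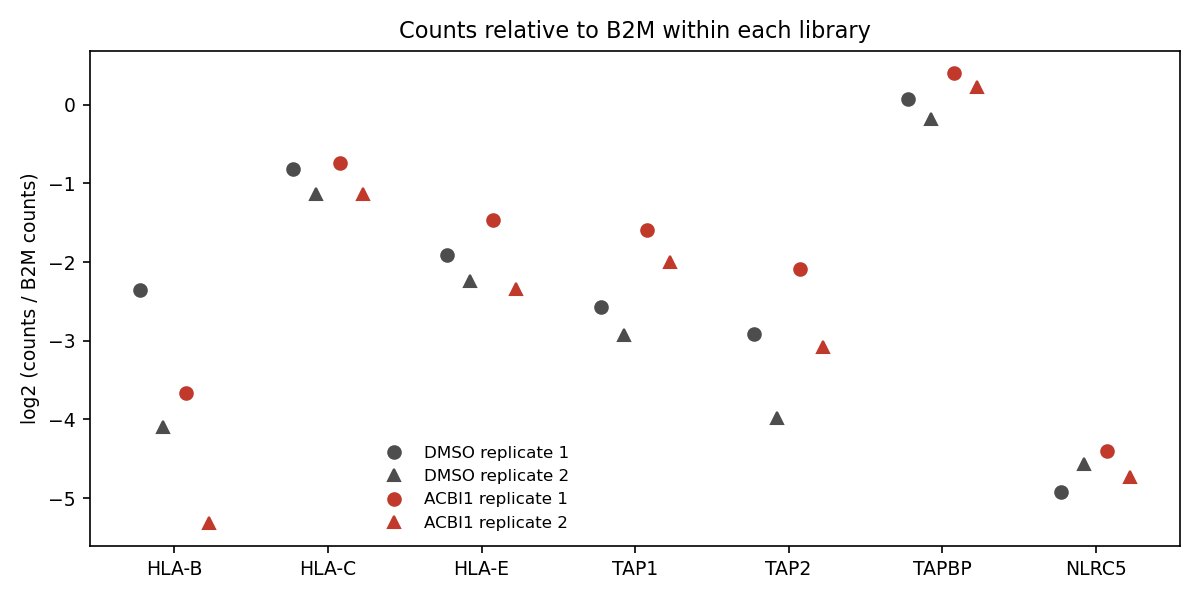
log2 of each gene's counts over B2M counts in the same library, with grey for DMSO, red for ACBI1, circles for replicate 1 and triangles for replicate 2; HLA-F is left out for its low counts. TAP1 and TAPBP have both red points above both grey points, HLA-C has the groups level, and HLA-B runs from -2.35 in DMSO replicate 1 to -5.32 in ACBI1 replicate 2.

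HLA-B also stood out by its spread within a group. DMSO replicate 1 exceeded DMSO replicate 2 by 3.22-fold in HLA-B and ACBI1 replicate 1 exceeded ACBI1 replicate 2 by 1.93-fold. Among the 11160 tested genes averaging 5 CPM or more, 73 (0.654%) had a gap between DMSO replicates at least that large, and 334 (2.99%) had one between ACBI1 replicates. TAP2 had a 2.01-fold gap with DMSO, matched or exceeded by 3.32% of these genes, and a 1.22-fold gap with ACBI1. HLA-C and HLA-E had gaps of at most 1.23-fold in either group. Among the context genes, CD74, the class II invariant chain, was singled out after its values were seen: it was at 13.3 and 3.20 CPM with DMSO and at 1.63 and 0.427 CPM with ACBI1, higher in the first replicate by 4.14-fold and 3.82-fold, and not called (log2 change -2.98, edgeR adjusted p 0.0636).

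**Figure D4:**
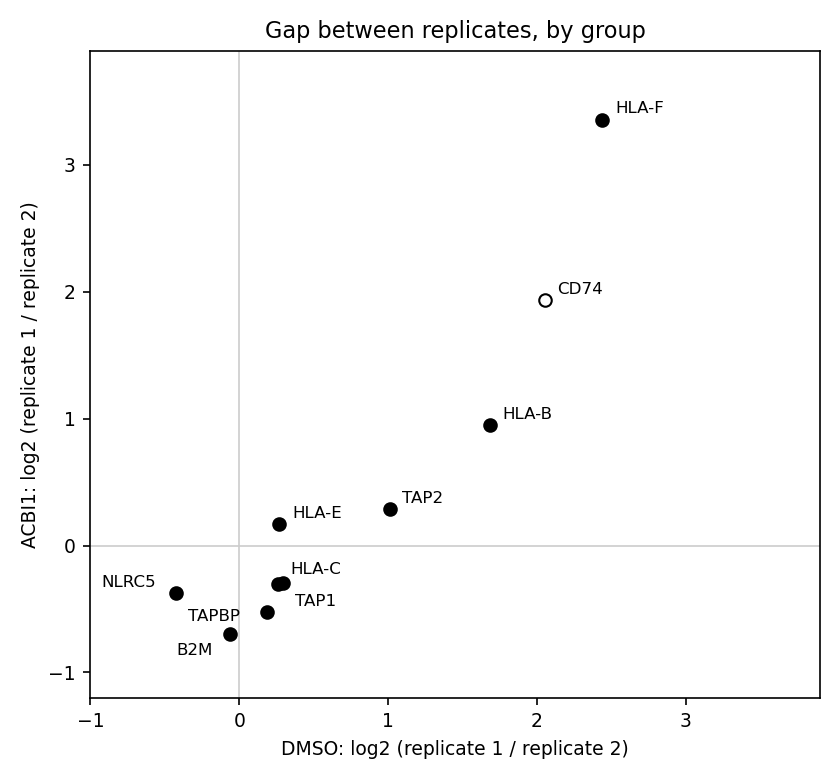
Gap between replicates, log2 of replicate 1 over replicate 2, with DMSO on the horizontal and ACBI1 on the vertical axis; filled points are the 9 class I genes and the open point is CD74. HLA-B (1.69 and 0.95), HLA-F (2.44 and 3.36) and CD74 (2.05 and 1.93) lie at the upper right, and NLRC5 and B2M at the lower left.

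Genes of the immunoproteasome and of peptide trimming formed a list separate from that of the constitutive proteasome subunits. All 7 genes of the immunoproteasome and of trimming were called lower with ACBI1, beside 10.6% of all genes. Their median log2 change was -1.68, with a range from -4.98 to -1.09. Like the class I genes, this list and the others below were chosen with earlier results known, so these shares are not a test. PSMB10, a catalytic subunit of the immunoproteasome, went from 28.1 ± 6.96 to 0.892 ± 0.0763 CPM (SD, n = 2), and other genes overlap 34.8% of its exons. The aminopeptidases ERAP2 and ERAP1 had log2 changes of -2.24 and -2.07 (edgeR adjusted p 0.00673 and 0.00262). PSMB9, PSMB8 and PSME1, a subunit of the proteasome activator PA28, had log2 changes of -1.68, -1.22 and -1.66 (edgeR adjusted p 0.00854, 0.023 and 0.00527).

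None of the 3 constitutive catalytic subunits that the immunoproteasome subunits replace was called by edgeR, DESeq2 or limma-voom, nor had any an unadjusted p under 0.05. PSMB5 was at 112 ± 6.57 and 114 ± 14.5 CPM, PSMB6 at 99.3 ± 8.95 and 119 ± 9.84 CPM and PSMB7 at 160.5 ± 29.04 and 129 ± 2.70 CPM, in the order DMSO, ACBI1 (SD, n = 2). Set against its constitutive counterpart, PSMB9 was at 29.6% and 24.6% of PSMB6 counts with DMSO and at 6.28% and 7.99% with ACBI1, and PSMB8 was at 50.5% and 31.8% of PSMB5 counts with DMSO and at 21.0% and 13.9% with ACBI1. TAP1 and PSMB9 lie head to head and share a promoter region. The ratio of TAP1 to PSMB9 counts was 3.78 and 4.22 with DMSO and 9.15 and 9.89 with ACBI1, so that the neighbours parted by 1.25 in mean log2 ratio with no overlap between groups.

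Of 6 genes for the folding of heavy chains 4 were called lower, beside 10.6% of all genes, with a median log2 change of -1.42 over the 6. TAPBPL, a tapasin-related peptide editor, fell from 26.8 ± 2.65 to 4.43 ± 0.163 CPM (SD, n = 2), that is a fitted log2 difference of -2.60 (edgeR adjusted p 0.00234). The log2 change was -1.62 for PDIA3, the disulphide isomerase that partners tapasin (adjusted p 0.0187), -1.57 for HSPA5, the main luminal chaperone of the reticulum (adjusted p 0.00884), and -1.27 for the lectin chaperone CANX (adjusted p 0.00854). CALR, the soluble lectin chaperone of the loading complex, had a log2 difference of -1.16 (adjusted p 0.0596) and UGGT1, a sensor of folding, one of -0.69 (adjusted p 0.0705), and both passed in DESeq2.

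None of the 8 genes for factors that bind class I promoters with NLRC5 was called by edgeR or limma-voom, 2 had an unadjusted p under 0.05, and DESeq2 called RFX5 alone, higher. RFX5 went from 80.9 ± 7.77 to 127 ± 18.5 CPM with the degrader (SD, n = 2), that is a fitted log2 difference of 0.65 (edgeR adjusted p 0.0566), and RFXAP, RFXANK and NFYA had log2 changes from -0.25 to -0.11. Of 17 interferon and NF-kB genes that induce class I, 3 were called, all lower, where 10.6% of all genes tested were called lower. The median log2 change over the list was -0.35. IRF1, a factor that binds class I promoters, fell from 148 ± 34.2 to 31.4 ± 3.81 CPM (SD, n = 2), that is a fitted log2 difference of -2.23 (edgeR adjusted p 0.00396), and other genes overlap 22.0% of its exons. STAT2, a factor of type I interferon signalling, changed by -1.78 on the log2 scale (adjusted p 0.0164), and the interferon gamma receptor gene IFNGR1 by -1.18 (adjusted p 0.00868).

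CIITA, the class II counterpart of NLRC5, fell from 1.503 ± 0.0762 to 0.371 ± 0.0356 CPM (SD, n = 2), that is a fitted log2 difference of -2.02 (edgeR adjusted p 0.0189), resting on 230 DMSO counts and 57 ACBI1 counts. Of 12 genes in the class II list 9 were too rare to test. Among class I-like molecules, MR1, which presents microbial metabolites, and ULBP2, a ligand of NKG2D, were called lower, with log2 changes of -2.06 and -2.44 (adjusted p 0.00823 and 0.00607), while FCGRT, HFE, MICA and MICB were not called, with log2 changes from -0.50 to 0.32.

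Genes that repress or turn over class I went both ways, with a median log2 change of 0.03. Of the 8, 3 were called lower and 1 higher, beside 10.6% and 6.75% of all genes. SUSD6, a membrane protein that directs class I to lysosomes, had a log2 change of -1.70 and its partner TMEM127 one of -0.76 (edgeR adjusted p 0.00462 and 0.0386). MARCHF9, a membrane ubiquitin ligase that can act on class I, had a log2 change of -1.60, and MARCHF4, a related ligase, was at 13.5 and 32.8 CPM with DMSO and at 85.4 and 68.9 CPM with ACBI1, a log2 change of 1.74 (adjusted p 0.00651 and 0.0364). EZH2, EED and SUZ12, the core of a Polycomb complex that can silence class I genes, had log2 changes of 0.33, 0.29 and 0.19 and were not called.

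**Figure D5:**
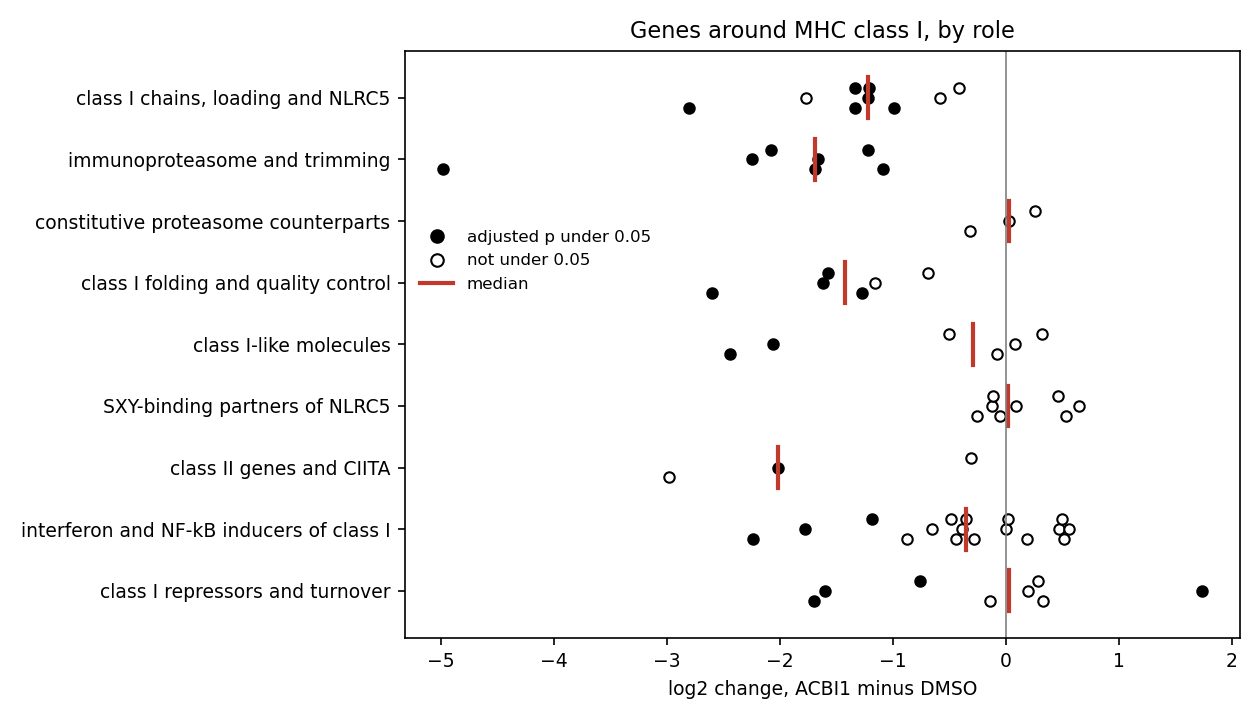
log2 change (ACBI1 minus DMSO) of each tested gene by its role around MHC class I; filled points passed an adjusted p of 0.05, open points did not, and red bars are medians. The class I genes, the immunoproteasome and the folding genes have medians of -1.22, -1.68 and -1.42, the constitutive proteasome subunits and NLRC5 partners have medians near 0, and PSMB10 lies alone at -4.98.

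By distance between centred log2 CPM over the 4 libraries, the genes outside the class I set whose pattern was most like NLRC5 were PLEKHM1, FUCA1 and ARSA, at distances of 0.0207, 0.0402 and 0.0508. The likeness rests on 4 libraries, and 621 of 11152 genes lay within 0.5 of NLRC5.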

How the data were processed

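RNA-seq counts of 2 DMSO and 2 ACBI1 libraries of H1792 cells were used, grouped and numbered by sample title. The deposited counts are raw reads per gene symbol, in the layout of htseq-count, with 5 further lines for unassigned reads that entered neither library sizes nor tests; 84.6% to 86.1% of the reads listed were in genes. TopHat2 2.1.1, HTSeq 0.11.0 and the build hg38 are named in the submitters' processing notes; the annotation and the strand setting are not given in the sources used here, so antisense and overlapping genes can share or lose reads.

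Genes were filtered with edgeR's filterByExpr (minimum count 10, minimum total 15), scaled by TMM and tested (edgeR 4.0.16, R 4.3.3; two-sided, treatment the sole term) with p adjusted over all 19159 genes. SD is between CPM of replicates, and each SE was derived as log2 change over root F. The alternatives were other scalings, filters, tools (DESeq2 1.42.0, limma-voom in limma 3.58.1), a threshold of 0.01, the replicate number as a block, TAPBP in place of B2M, and each library left out. Shared windows, lengths and exon overlap came from GENCODE 29, and upstream sequences from RefSeq, GRCh38.p14. All 9 members are named; in each of 8 context lists (69 genes), up to 6 called genes by size of change and up to 4 others in list order; some genes this rule takes are not reported here. Members and lists were chosen with earlier results of these data known. Floors for a count of 0 are 3 counts per library and cover counting error only. The scripts were tested on simulated counts of this comparison over 19159 genes, of which 200 were changed: edgeR recovered 50.0%, 68.2% and 97.1% of genes changed by a log2 of 1, 2 and 4, with 9 false calls. The simulated spread followed the level of a gene alone, without spread particular to a gene or shared by same-numbered libraries. Those figures therefore check the scripts and do not give the recovery or false calls in the real libraries.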

Additional observations from a re-analysis of the deposited data

How the results depend on the processing

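Over all genes, 3331 were called. The count was 5518 when every gene with a count was tested, 783 at a threshold of 0.01, and 1379 to 4292 with 1 library left out. Of the 9 class I genes, 6 were called lower under DESeq2, limma-voom, the other scalings and a minimum of 5 CPM, the same 6 each time, and 2 to 7 with 1 library left out. When every gene with a count was tested, 8 were called, HLA-F and TAP2 in addition. In that fit the SE was 0.22 for HLA-B and 0.21 for TAP2, beside 0.60 and 0.33 with the filter. Its p-values thus reflect less of the wide gaps between DMSO replicates of these genes. At a threshold of 0.01 edgeR called 0 of the 9, DESeq2 6 and limma-voom 2, beside 783, 3213 and 832 of the 19159 genes tested. An unadjusted edgeR p under 0.05 was found for 6 of the 9, beside 6490 of the 19159. The log2 change of TAP2 ran from -1.01 without DMSO replicate 2, where it was called, to 0.0107 without DMSO replicate 1. Library size scaling moved the median of all genes by 0.09 on the log2 scale.

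Nothing in the labels ties same-numbered libraries to a common batch. Deviations of same-numbered libraries from their group means correlated at 0.414 across genes. With the replicate number as a block, 7909 of the 19159 genes were called in place of 3331, 53.1% of them lower against 61.2%. All 9 class I genes were then called lower (TAP1 at an edgeR adjusted p of 0.0481). The 58 tested genes of the context lists had 37 calls in place of 21. Depth limits HLA-F, with 1 to 43 counts a library.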

Other observations

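The genes next to the class I genes in the genome did not share a direction. The nearest tested protein-coding genes on each side were taken from GENCODE 29, a positional rule set after the data were seen. HLA genes, genes of the class I set and genes overlapping the class I gene were left out. PSMB9, whose model spans that of TAP1, was left out in this way and was called lower (log2 change -1.68, edgeR adjusted p 0.00854). Beside B2M, PATL2 (171 bases away, under 1 CPM) and TRIM69 had log2 changes of -0.04 and 0.48 and were not called (edgeR adjusted p 0.959 and 0.283). GNL1, 47172 bases from HLA-E, was at 53.8 and 51.6 CPM with DMSO and 50.2 and 50.9 CPM with ACBI1. TCF19, beyond HLA-C, was called higher, from 13.9 and 15.1 CPM to 33.9 and 43.6 CPM, a log2 change of 1.42 (adjusted p 0.00855). Beside NLRC5, CETP (5640 bases away) was called lower at an adjusted p of 0.0488, from 0.282 and 0.403 CPM to 0.0112 and 0.0763 CPM, while CPNE2, on the other side, had a log2 change of 0.53 and was not called (adjusted p 0.0612). PSMB8, between TAP1 and TAP2, was called lower and so was NOTCH4, on the far side of TAP2 at 597766 bases (log2 change -1.94, adjusted p 0.023). Beside TAPBP, RGL2 (370 bases away) was called lower with a log2 change of -1.04 (adjusted p 0.0121), and ZBTB22 (19 bases away) had one of -0.83 and was not called (adjusted p 0.0799). Reads near the ends of genes so close together can be assigned to either gene.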
